A study of Physcomitrium patens with 20 samples.

Results

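Transcripts of 9 genes that were nearly undetected in wild-type moss and in mutants of DRM1 and DRM2 together, MET, CMT or DNMT3b were present in every library of both double mutants. These 9 genes, of 31967 gene rows in the deposited table, were chosen by their levels. CPM (a gene's count scaled so that each library sums to 1000000) had to have a mean under 0.5 in each of wild type (wt), drm12, met, cmt and dnmt3b, and to reach at least 1 in each of the 3 met/dnmt3b and 3 cmt/dnmt3b libraries. Their levels in these groups are therefore a description, and no test is given for the double mutants against the other 5 genotypes.

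The material was 7-day-old protonema, the filaments that grow from a spore, of Physcomitrium patens (cultivar spelled Grandsen in the labels), kept on BCDAT medium under long days. Polyadenylated RNA was sequenced in 20 libraries of 7 genotypes: unmutated wt, drm12 (loss of DRM1 and DRM2), the single mutants dnmt3b, cmt and met, and the double mutants cmt/dnmt3b and met/dnmt3b. There were 2 libraries of met and 3 of each other genotype. No genotype received a treatment, and the labels do not say whether a mutant is 1 line or several, or whether replicates came from different cultures. The p-values therefore rest on the spread among these libraries, which may be technical. The labels put all met/dnmt3b libraries in batch 1 and all cmt/dnmt3b libraries in batch 2. Both met libraries were in batch 1, all dnmt3b libraries in batch 2, and wt, drm12 and cmt had replicates 1 and 2 in batch 1 and replicate 3 in batch 2.

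Cytosine methylation silences transposable elements (TEs) and some genes in plants, and it is laid down in CG, CHG and CHH contexts (H stands for A, C or T). In mosses CG methylation is maintained by MET and CHG methylation by CMT, while DNMT3b makes most CHH methylation of heterochromatin, so met/dnmt3b lacks the CG and CHH enzymes and cmt/dnmt3b the CHG and CHH enzymes. DRM1 and DRM2 are relatives of the plant enzymes that small RNAs guide. The question here is which genes that stay near silent in each single mutant are transcribed when enzymes of different contexts are lost together. The files do not pair the gene identifiers with names, and none of the 31967 identifiers was found in the RefSeq gene table used here, so no function, length or sequence is given for any of the 9 genes. CPM is not divided by transcript length. Ranges over the 9 genes and sums over them therefore only describe CPM, and do not rank genes by number of transcripts. The levels of the targeted genes and of tissue markers were not analysed here, because the identifiers could not be matched to names.

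The libraries held between 14236575 and 21811993 counts. A count of 0 allows up to 3 counts, a level of 0.138 to 0.211 CPM depending on the library, which covers counting error only. The 9 genes had between 1 (Pp3c6_5140) and 14 (Pp3c20_4600) counts over the 3 wt libraries together, so none was without reads in wt and "silent" means a very low level here. Of the 126 values of the 9 genes in the 14 libraries outside the double mutants, 20 were 0 and 14 reached 0.5 CPM, with a maximum of 0.661. In bulk RNA, more cells with a transcript and more transcript per cell cannot be told apart.

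Of all genes, 12625 had a mean under 0.5 CPM in each of the 5 other genotypes, and 6121 of these had no count in any library. Of the 12625, 35 reached 1 CPM in every met/dnmt3b library and 121 in every cmt/dnmt3b library. The 9 genes in common are 25.7% of the first list and 7.44% of the second. By the same rule 72 TEs were on in met/dnmt3b and 3091 in cmt/dnmt3b, and the 65 in common are 90.3% and 2.10% of those lists. Both lists use the same wt and single mutant libraries as reference, so these shares describe the rule and carry no test.

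**Figure D1:**
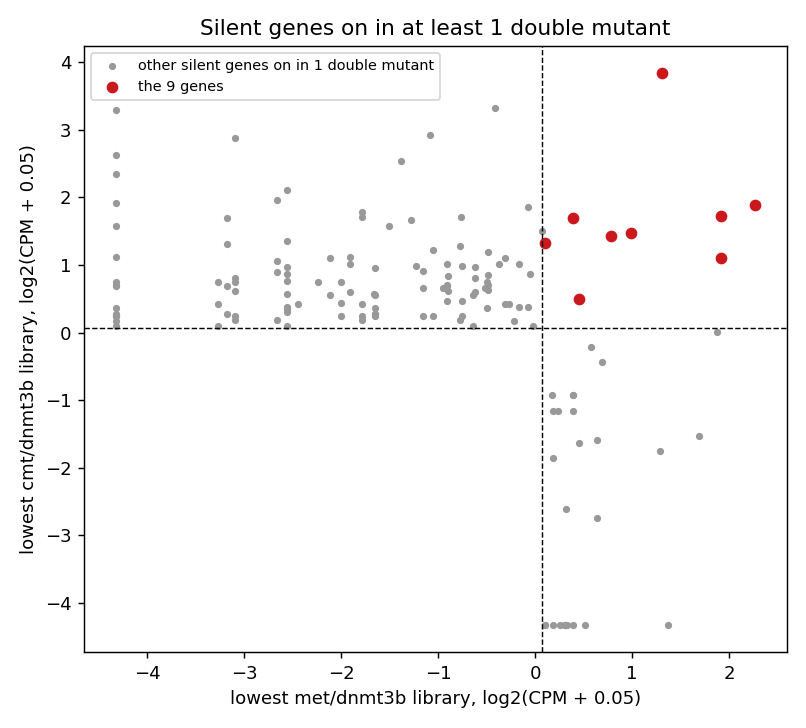
The 147 genes that were silent in the other 5 genotypes and on in at least 1 double mutant, by the level of their lowest met/dnmt3b library (x) and lowest cmt/dnmt3b library (y), each as log2 of CPM plus 0.05. Dashed lines mark 1 CPM, and the 9 genes (red) fill the upper right field.

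In the double mutants the 9 genes reached low to moderate levels. The mean over 3 libraries ran from 1.36 CPM (Pp3c6_5140) to 5.59 CPM (Pp3c20_4600) in met/dnmt3b, and from 1.56 CPM (Pp3c1_22321) to 18.0 CPM (Pp3c16_19740) in cmt/dnmt3b. Set against whichever of the other 5 genotypes was highest for that gene, the met/dnmt3b mean was 3.90 to 14.3 times as high and the cmt/dnmt3b mean 3.41 to 47.0 times as high. Pp3c1_22321 had the smallest ratio in both double mutants. The lowest double mutant library was between 2.44 (Pp3c1_22321) and 7.81 (Pp3c6_4250) times the highest of the 14 other libraries, so these ranges did not overlap for any of the 9 genes, which the rule largely fixes.

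**Figure D2:**
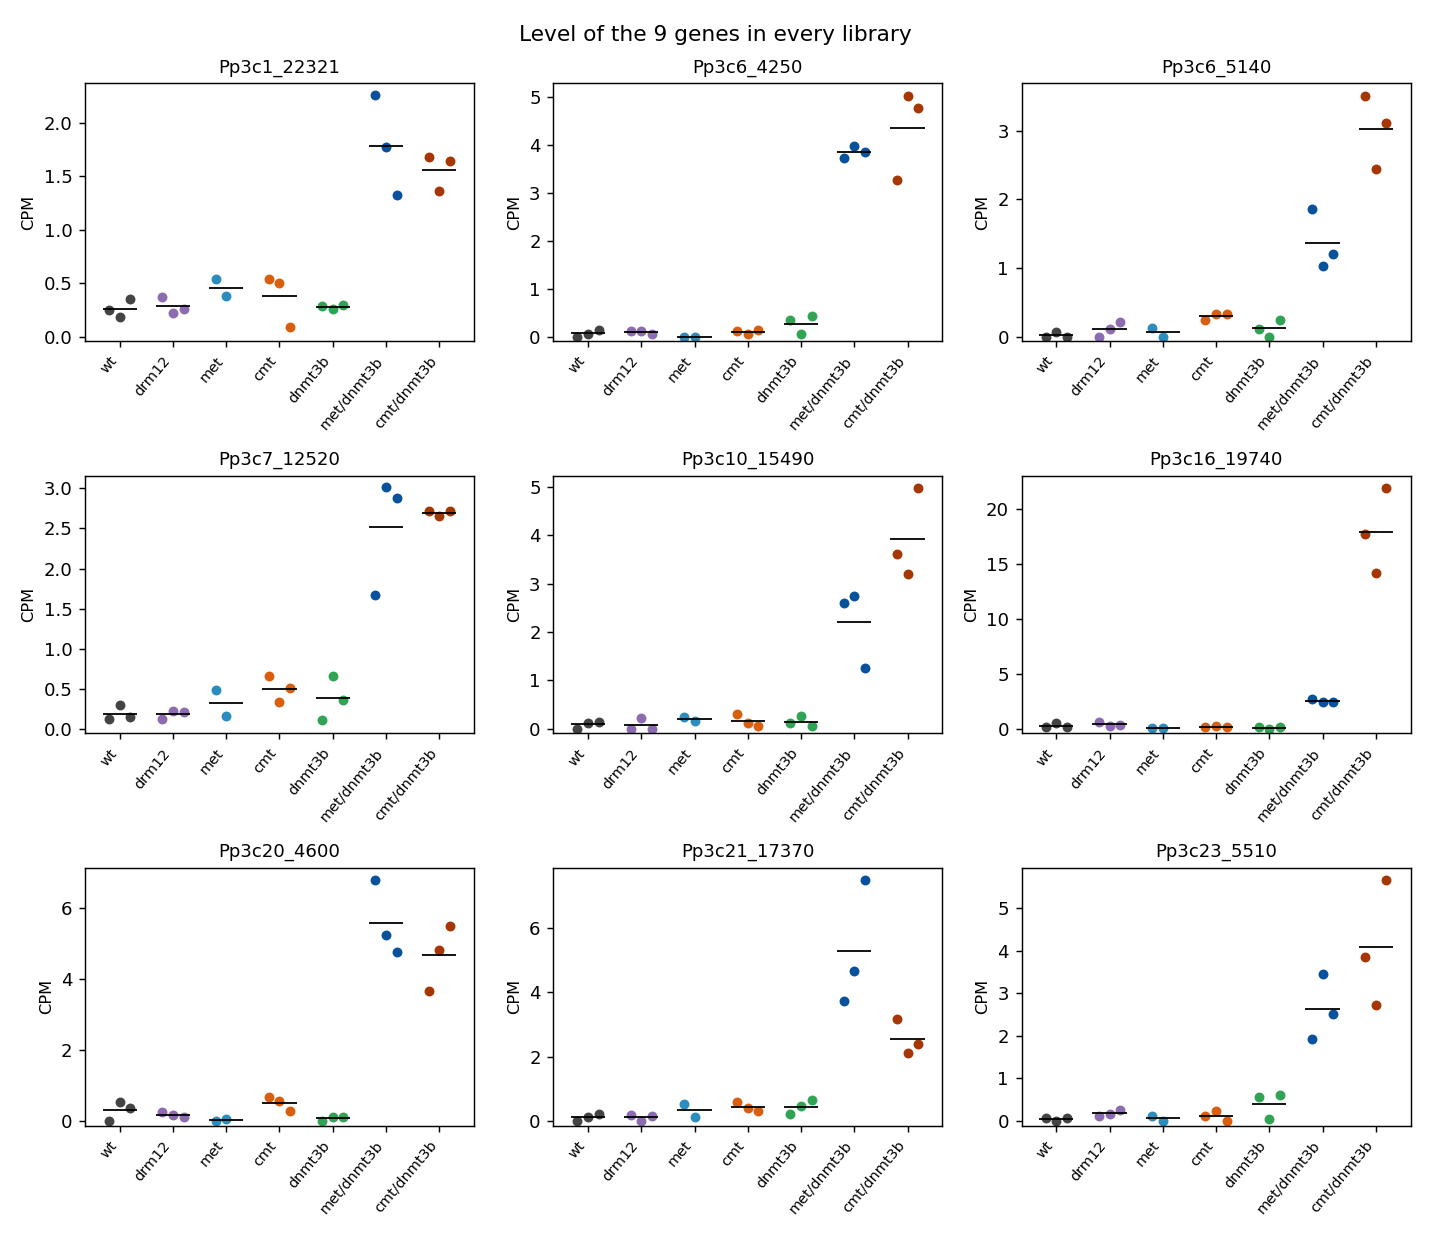
CPM of each of the 9 genes (1 panel each, y axis linear and scaled per gene) in every library, by genotype; points are libraries in the order of their replicate numbers and bars are means of 3 libraries (2 for met). Every double mutant library lies above every other library in each panel, and in Pp3c16_19740 the 3 cmt/dnmt3b libraries lie between 14.2 and 22.0 CPM.

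Pp3c16_19740 was the only one of the 9 genes whose level differed between the double mutants past the threshold. Its CPM values were 2.73, 2.42 and 2.46 in met/dnmt3b replicates 1 to 3 and 17.8, 14.2 and 22.0 in cmt/dnmt3b replicates 1 to 3. All cmt/dnmt3b libraries were above all met/dnmt3b libraries. In wt it had 0.125, 0.478 and 0.140 CPM, in drm12 0.615, 0.220 and 0.312, in met 0.0600 and 0.0536, in cmt 0.180, 0.222 and 0.183, and in dnmt3b 0.114, 0 and 0.119. Among those 5 genotypes the mean was highest in drm12 and lowest in met. The mean was 2.54 ± 0.166 CPM in met/dnmt3b and 18.0 ± 3.90 in cmt/dnmt3b (SD, n = 3 each), a CPM ratio of 7.09. On the scale of the fitted model the log2 fold change of cmt/dnmt3b against met/dnmt3b was 2.42 ± 0.46 (SE; 95% interval 1.53 to 3.32, edgeR quasi-likelihood test, adjusted p = 0.000859).

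The rule asks both double mutants to be high and does not use the difference between them, but it leaves out genes on in 1 of them alone (26 in met/dnmt3b and 112 in cmt/dnmt3b), and with them genes that differ strongly. The test therefore speaks for single genes, and the number of the 9 that pass it is not set against other genes. The fit had genotype as its only term and used all 20 libraries, 20149 genes and 6602 TEs. All 9 genes passed its low-count filter, which their levels in the double mutants alone would secure. At an adjusted p under 0.05, 1 of the 9 genes and 26.5% of the genes tested differed between the double mutants, and nothing is read from these shares. Of the genes tested 9.10% were higher in cmt/dnmt3b and 17.4% lower, while of the 6602 TEs tested 65.0% were higher and 66 TEs lower. The median log2 fold change was -0.21 over the 9 genes, -0.15 over all genes tested and 3.23 over all TEs tested. The median gene was below 0 with normalisation factors taken over genes and TEs together. With factors from genes alone it was 0.03. The split of gene calls then went from 1833 higher and 3515 lower to 2684 higher and 2178 lower. The cause of this shift was not tested. The 4 positive and 5 negative estimates among the 9 genes kept their signs with factors from genes alone.

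Genotype and batch coincide in this contrast, and no batch holds both double mutants. A batch term can be estimated from wt, drm12 and cmt, where the 9 genes had few counts, so it is imprecise for them. With that term Pp3c16_19740 had a log2 fold change of 2.98 ± 0.67 (edgeR adjusted p = 0.0128) and was again the only call among the 9, against 5.74% of genes. For these genes the part of batch in the difference between the double mutants cannot be told apart from that of genotype.

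A pair of the genes, Pp3c16_19740 and Pp3c10_15490, lie, by their identifiers, on chromosomes whose genes as a whole were higher in cmt/dnmt3b than in met/dnmt3b. Chromosome numbers were read from the identifiers and not checked against an annotation. For chromosome 16 the median log2 fold change of cmt/dnmt3b against met/dnmt3b over 824 tested genes was 0.73, and over the 12 tested genes within 10 gene rows of Pp3c16_19740 it was 0.82. The estimate for Pp3c16_19740, 2.42, was above both. For chromosome 10 the median over 773 genes was 0.47, and Pp3c10_15490 had 0.44 ± 0.67 (SE; edgeR adjusted p = 0.632). Its CPM was 2.59, 2.75 and 1.26 in the met/dnmt3b libraries and 3.61, 3.19 and 4.99 in the cmt/dnmt3b libraries. These did not overlap in CPM, which carries no normalisation factors, while the 14 other libraries ran from 0 to 0.301. The part of this chromosome-wide difference in the level of either gene was not tested. For the chromosomes of the other 7 genes this median lay between -0.26 and -0.18.

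**Figure D3:**
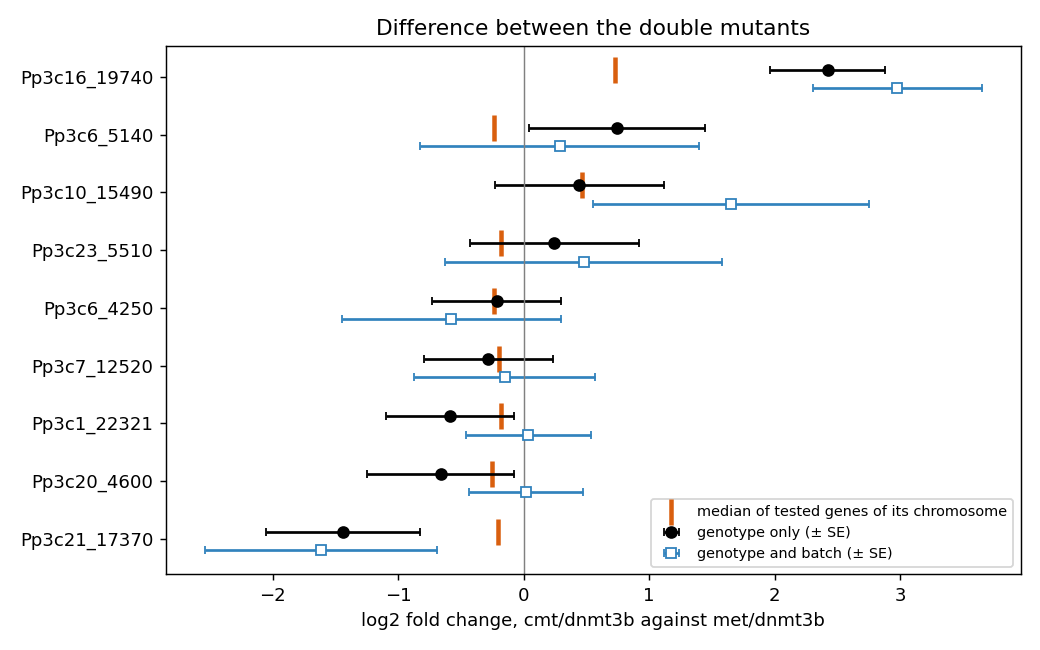
Log2 fold change of cmt/dnmt3b against met/dnmt3b for each of the 9 genes with genotype alone (black circles) and with genotype and batch (open blue squares), bars being SE; orange ticks are the medians over the tested genes of the same chromosome. Pp3c16_19740 at 2.42 lies to the right of its chromosome's median of 0.73, and Pp3c10_15490 at 0.44 lies on that of its own.

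Pp3c21_17370 had its higher values in met/dnmt3b, but the difference missed the threshold. Its CPM was 3.73, 4.68 and 7.51 in met/dnmt3b and 3.17, 2.11 and 2.38 in cmt/dnmt3b, so that every met/dnmt3b library was above every cmt/dnmt3b library. It had 0, 0.119 and 0.211 CPM in wt, 0.185, 0 and 0.156 in drm12, 0.540 and 0.107 in met, 0.601, 0.388 and 0.321 in cmt, and 0.228, 0.456 and 0.657 in dnmt3b. The log2 fold change was -1.44 ± 0.61 (SE; 95% interval -2.64 to -0.24), with an unadjusted p of 0.0298 and an edgeR adjusted p of 0.0728, which misses the threshold. With only the 6 double mutant libraries in the fit, where 51.9% of genes were called, it passed (log2 fold change -1.41, edgeR adjusted p = 0.000476), as did Pp3c20_4600 (-0.64, edgeR adjusted p = 0.0386). With the batch term it did not (-1.61 ± 0.93, edgeR adjusted p = 0.328).

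Pp3c6_5140 was higher in each cmt/dnmt3b library (3.51, 2.45 and 3.12 CPM) than in each met/dnmt3b library (1.86, 1.02 and 1.20 CPM). It had 1 count in the 3 wt libraries together, 0.241, 0.332 and 0.321 CPM in cmt, and at most 0.239 in any drm12, met or dnmt3b library. The log2 fold change was 0.74 ± 0.70 (95% interval -0.63 to 2.12, edgeR adjusted p = 0.426). In all, the libraries of the double mutants did not overlap in CPM for 4 of the 9 genes, 3 with cmt/dnmt3b above and 1 with met/dnmt3b above. Over the genes tested this was so for 56.1%, in 37.9% with cmt/dnmt3b above and in 18.2% with met/dnmt3b above. These counts use CPM without the normalisation factors of the test. Those factors were 1.21 to 1.30 in cmt/dnmt3b and 0.895 to 1.02 in met/dnmt3b. Dividing by them lowers cmt/dnmt3b relative to met/dnmt3b, and overlap on that scale was not counted.

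The other 5 genes had overlapping libraries in the double mutants. Pp3c20_4600 had 6.79, 5.22 and 4.75 CPM in met/dnmt3b and 3.66, 4.82 and 5.50 in cmt/dnmt3b, with 0, 0.538 and 0.351 in wt, 0.246, 0.165 and 0.104 in drm12, 0 and 0.0536 in met, 0.661, 0.554 and 0.275 in cmt, and 0, 0.101 and 0.119 in dnmt3b. Its mean in met/dnmt3b, 5.59 CPM, was 55.6 times the sum of the means of met and dnmt3b (0.100 CPM), whereas in cmt/dnmt3b the mean of 4.66 CPM was 8.17 times the sum of cmt and dnmt3b (0.570 CPM). The first of these ratios rests on 1 count in met and 4 in dnmt3b, the second on 27 counts in cmt and 4 in dnmt3b, and the rule, which keeps single mutants low and double mutants high, puts both above 1, so they only describe the values.

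Pp3c6_4250 was the steadiest in met/dnmt3b, with 3.73, 3.98 and 3.85 CPM, and had 3.27, 5.03 and 4.76 in cmt/dnmt3b. It had no count in either met library and 3 counts in wt; dnmt3b was the highest of the 5 other genotypes, with 0.342, 0.0506 and 0.418 CPM. Pp3c23_5510, with 1.93, 3.45 and 2.52 CPM in met/dnmt3b and 3.86, 2.72 and 5.67 in cmt/dnmt3b, was also highest in dnmt3b among those 5 (0.569, 0.0506 and 0.597 CPM). For both genes dnmt3b replicate 2 was the lowest dnmt3b library, but the counts were few: 6, 1 and 7 for Pp3c6_4250 and 10, 1 and 10 for Pp3c23_5510. For Pp3c7_12520 the same library was the highest of dnmt3b, with 13 counts.

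Pp3c7_12520 and Pp3c1_22321 had counts in all 14 other libraries, unlike the remaining 7 genes. Pp3c7_12520 had 1.66, 3.01 and 2.88 CPM in met/dnmt3b and 2.72, 2.65 and 2.72 in cmt/dnmt3b, against 0.661, 0.332 and 0.504 in cmt and 0.114, 0.658 and 0.358 in dnmt3b. Pp3c1_22321 had 2.26, 1.78 and 1.32 CPM in met/dnmt3b and 1.68, 1.36 and 1.64 in cmt/dnmt3b, against 0.540 and 0.375 in met and 0.541, 0.499 and 0.0917 in cmt. In cmt/dnmt3b these levels were 3.08 and 2.38 times the sum of the means of cmt and dnmt3b, and in met/dnmt3b 3.61 and 2.43 times the sum of met and dnmt3b. Across the 9 genes these ratios to the sum ran from 2.38 to 65.9 in cmt/dnmt3b and from 2.43 to 55.6 in met/dnmt3b. A ratio above 1 is fixed by the rule for every one of the 9 genes, and nothing is read from it.

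The 5 overlapping genes had log2 fold changes between -0.66 ± 0.59 (Pp3c20_4600) and 0.25 ± 0.67 (Pp3c23_5510), with edgeR adjusted p between 0.388 and 0.799. Each of their 95% intervals included 0, so in the fit of all 20 libraries none of these differences could be told from none. With only the 6 double mutant libraries in the fit, Pp3c20_4600 was called lower in cmt/dnmt3b, as given above. The lowest end was that of Pp3c20_4600 (-1.81 to 0.49) and the highest that of Pp3c23_5510 (-1.08 to 1.57), and no single gene covered the whole range. Apart from Pp3c16_19740, the genes had 19 to 125 counts each in a double mutant library. For Pp3c6_4250 in met/dnmt3b the spread between libraries (3.35% of the mean) was below the 12.4% expected from counting alone, and for Pp3c21_17370 in met/dnmt3b it was 37.1% against 10.6%.

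Among the 5 genotypes in which the genes were near silent, the levels are given with no test. No gene had its highest mean in wt; it was highest in cmt for 3, in dnmt3b for 3, in met for 2 and in drm12 for 1. The mean was above that of wt for 8 of the 9 genes in cmt, 7 in dnmt3b, 6 in drm12 and 6 in met. All libraries of a genotype together held few counts of the 9 genes: 62 in wt, 147 in cmt, 117 in dnmt3b, 85 in drm12 and 52 in met. The share over all silent genes is not given here, so nothing is read from these numbers of genes. Summed over the 9 genes, the level was 1.32 ± 0.673 CPM in wt, 1.59 ± 0.178 in drm12, 2.67 ± 0.775 in cmt and 2.19 ± 0.588 in dnmt3b (SD, n = 3 each), and 2.10 and 0.912 in the met libraries. Of the 36 pairs of genotypes that are next to each other in the order of means, the libraries overlapped in 34. Such pairs have the closest means and are the likeliest to overlap, so this number only describes the values. With so few counts, no order among these 5 genotypes is drawn from single genes.

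In the double mutants the summed level of the 9 genes was 27.3, 28.3 and 27.8 CPM in the met/dnmt3b libraries and 43.2, 38.5 and 52.8 CPM in the cmt/dnmt3b libraries. Without Pp3c16_19740 it was 24.6, 25.9 and 25.3 CPM against 25.5, 24.3 and 30.8 CPM, and the libraries of the double mutants overlapped. The gene left out was the one that differed most between the double mutants, so this overlap only describes the values. These sums also use CPM without the normalisation factors of the test. The share of counts in TEs was 0.364, 0.450 and 0.308% in met/dnmt3b and 3.07, 2.94 and 3.60% in cmt/dnmt3b.

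**Figure D4:**
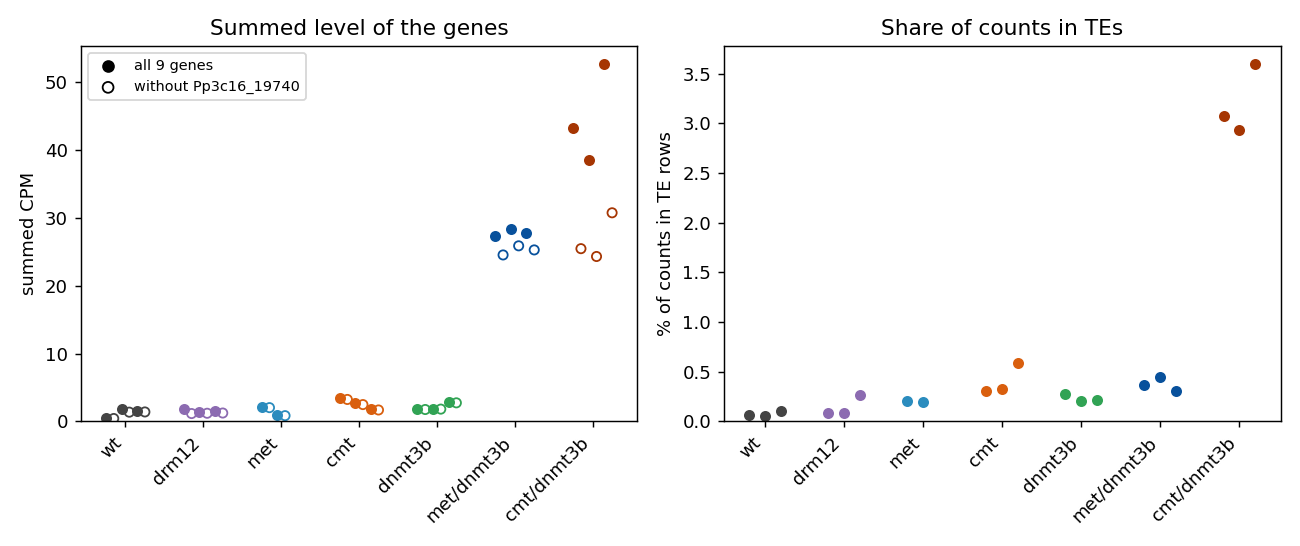
Left, CPM summed over the 9 genes in every library (filled) and without Pp3c16_19740 (open); right, percent of counts in TE rows, by genotype, with points as libraries. Without Pp3c16_19740 the sums of both double mutants lie between 24.3 and 30.8 CPM, while the TE share is 0.308 to 0.450% in met/dnmt3b and 2.94 to 3.60% in cmt/dnmt3b.

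The 9 genes lay on 8 of 27 chromosomes by their identifiers, and none was next to another. Pp3c6_4250 and Pp3c6_5140, on chromosome 6, had 30 gene rows between them. Of the 18 gene rows directly beside a member, 12 had a wt mean of at least 1 CPM, 4 were silent in the 5 other genotypes, and none met the rule. Of those 4, Pp3c16_19700 had means of 0.301 CPM in met/dnmt3b and 0.804 in cmt/dnmt3b, and Pp3c10_15470 0.246 and 0.238. Pp3c20_4640 had 0.0866 and 0, and Pp3c20_4540 had no count in any library. Pp3c6_4290, beside Pp3c6_4250, had 2.99 and 1.07 CPM, against means of 0.177 to 0.509 in the 5 other genotypes, with wt libraries up to 1.25. Of the 15 neighbours tested, 3 differed between the double mutants (edgeR adjusted p under 0.05), against 26.5% of genes. Pp3c16_19750, beside Pp3c16_19740, had 1.28 ± 0.474 CPM in met/dnmt3b, 7.06 ± 1.77 in cmt/dnmt3b and 7.61 ± 6.84 in wt (SD, n = 3 each; log2 fold change between the double mutants 2.07, edgeR adjusted p = 0.00862). Pp3c6_5150, beside Pp3c6_5140, had 13.6 ± 6.42, 91.1 ± 21.3 and 5.63 ± 2.45 CPM in the same groups (log2 fold change 2.37, edgeR adjusted p = 0.00606). Its mean was 21.0 ± 14.4 CPM in cmt (SD, n = 3), and 6.23, 6.32 and 2.25 CPM in drm12, met and dnmt3b. Pp3c7_12500, beside Pp3c7_12520, was lower in cmt/dnmt3b (38.6 ± 5.51 against 62.0 ± 5.23 CPM). Counts of neighbouring or overlapping genes can share reads, and the strand setting of the counting is not given in the sources used here, so such pairs are uncertain.

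The limits of the rule decide which genes are named. Just inside the limit of silence were Pp3c7_12520 (0.499 CPM in cmt), Pp3c20_4600 (0.497 CPM in cmt) and Pp3c1_22321 (0.458 CPM in met). Just outside were Pp3c23_21120 (0.508 CPM in dnmt3b), Pp3c13_11600 (0.527 CPM in cmt) and Pp3c15_16010 (0.536 CPM in cmt), whose means were 1.65 to 2.99 CPM in met/dnmt3b and 1.79 to 4.86 CPM in cmt/dnmt3b. The lowest double mutant library was at 1.02 CPM for Pp3c6_5140, 1.26 for Pp3c10_15490 and 1.32 for Pp3c1_22321. It was at 0.998 CPM for Pp3c1_14940, 0.951 for Pp3c23_6260 and 0.940 for Pp3c14_9730, which the rule leaves out. Requiring every other library, and not only each mean, to be under 0.5 CPM left 3 genes, Pp3c6_4250, Pp3c6_5140 and Pp3c10_15490.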

How the data were processed

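The authors deposited 1 table of raw counts per gene and TE for the 20 libraries, with 31967 gene and 241351 TE rows. The tools named, per the submitters' processing notes, are STAR 2.7.0f, cutadapt 1.15 and Trim Galore 0.6.0. How reads were counted, with which strand setting, treatment of multi-mapping reads, build and annotation, is not given in the sources used here, so counts of genes with close copies or overlapping TEs are uncertain.

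CPM was the count over the column sum of all rows, without normalisation factors. Tests were run in R 4.3.3 with edgeR 4.0.16 (quasi-likelihood) on genes and TEs together, with trimmed mean (TMM) factors, edgeR's low-count filter (minimum count 10, minimum total 15), and Benjamini-Hochberg adjustment over 26751 features with a threshold of 0.05. SEs are the fold change over the root of the F statistic, and 95% intervals are 1.96 SE each side. Alternatives included DESeq2 1.42.0, other factors, a batch term, a replicate block and leaving out each library. The scripts were tested on simulated data. Replicates differed beyond sampling noise (chi-square per degree of freedom at least 7.32), so none was merged.

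The rule for naming genes covered all 9 members, the genes nearest to each limit and neighbours of members. The neighbours named were the 3 that passed the threshold, the 4 silent ones and Pp3c6_4290. Planned lists by product name could not be applied because no identifier matched the RefSeq table (assembly ASM5946719v1). The members and lists were chosen with earlier results of these data known.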

Additional observations from a re-analysis of the deposited data

How the results depend on the processing

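The number of genes that met the rule was 1 with a silence limit of 0.25 CPM, 47 with 1 CPM, 65 with an expression limit of 0.5 CPM, 4 with 2 CPM, and 3 with every other library under 0.5 CPM. With CPM over the effective library sizes used in the test (TMM), 7 genes met it, 6 of them members, without Pp3c20_4600, Pp3c6_5140 and Pp3c7_12520; with CPM over gene rows alone 9 did, 8 of them members, without Pp3c7_12520. Leaving out each library in turn gave 7 to 14 genes (14 without met/dnmt3b replicate 1), and 4 of the 9 met the rule under each omission. Pp3c16_19740 was the only member called higher in cmt/dnmt3b under each fit run (1 member without each library in turn); without the members of chromosomes 10 and 16 the count was 0. No member was called lower, and 0 were without each library in turn, except 2 (Pp3c21_17370 and Pp3c20_4600) with only the 6 double mutant libraries and 1 (Pp3c21_17370) with the replicate block in those 6. With the replicate block in all 20 libraries the counts were 1 higher and 0 lower. Deviations of same-numbered double mutant libraries had correlations of -0.037, -0.051 and 0.086, and those of differently numbered ones -0.19 to 0.22. These values show no sign that the numbers pair the libraries, but cannot exclude it. The median log2 fold change of the members was 0.039 with the batch term, -0.034 with factors from genes alone, -0.043 with RLE factors, -0.044 by DESeq2, and -0.22 to 0.052 without each library in turn (0.052 without cmt/dnmt3b replicate 1). With the batch term the estimates of Pp3c1_22321 and Pp3c20_4600 changed sign, to 0.039 and 0.019, and Pp3c6_4250 ran from -0.27 to 0.052 without each library in turn; none of these 3 was past the threshold. The cause of these changes was not tested.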
